A study of Mus musculus with 12 samples.

Results

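Ear skin of mice contains thin sheets and slips of striated muscle beside dermis, cartilage and fat, and 37 genes of the skeletal muscle sarcomere and of its calcium handling were followed through 12 bulk mRNA libraries of that tissue. The genes were chosen by symbol, and each symbol matched 1 of the 55416 Ensembl gene identifiers in the tables; all 37 passed the filter on low counts, which left 17130 genes to be tested. They were classed as 14 fast fiber genes, 8 slow fiber genes and 15 with no fixed fiber type. The defining markers of striated muscle, Acta1, Ckm and Myh1, were present in every library.

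The mice were C57BL/6, aged 8 to 12 weeks, and every title names day 6. IMQ/GW3965 and IMQ/Troglitazone ears were treated with imiquimod, an activator of Toll-like receptor 7, and the mice also received GW3965 (a drug that activates liver X receptors) at 20 mg/kg, or troglitazone (which activates PPARγ) at 150 mg/kg, by intraperitoneal injection each day from day 3. IMQ/Veh ears were treated with imiquimod and the mice received the DMSO vehicle, and UTX/Veh is the group that carries no imiquimod in its label, also with vehicle; the labels do not spell out UTX. Imiquimod was applied as 20.8 mg of Aldara cream (5% by weight) per day to the back of the ear. Each group has 3 libraries, and since the labels do not say that these come from separate animals, the p-values measure only the spread between libraries, which may be technical.

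In a striated muscle fiber, an action potential opens the voltage sensor and the ryanodine receptor, calcium leaves the sarcoplasmic reticulum and binds troponin C, and myosin heads then pull on actin until the calcium pump restores rest. Fast and slow fibers carry out the same cycle with different paralogs of myosin, light chain, troponin and myosin-binding protein, and fast fibers hold more parvalbumin, a soluble calcium buffer, and more of the pump encoded by Atp2a1. Titin, nebulin and the Z-disc and M-line proteins hold the filaments in register in both fiber types.

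Total expected counts ran between 18242074 and 25641602 per library. The 37 genes held 1.564, 1.146 and 0.9249% of all counts in IMQ/GW3965 ears, 1.015, 0.8621 and 1.266% in IMQ/Troglitazone ears, 0.2539, 0.307 and 1.009% in IMQ/Veh ears, and 2.331, 2.473 and 2.652% in UTX/Veh ears. IMQ/Veh replicate 3 stood apart from the other 2 libraries of its group, with a larger share of muscle counts than either. Leaving it out was therefore bound to widen the gap in muscle RNA between IMQ/Veh and each other group. Values given without it describe the weight of this library and are not support for a difference. In IMQ/GW3965 replicate 3, a single identifier with no symbol, ENSMUSG00000119584, took 11.62% of the counts, against 0.04543 to 0.1379% in the other 11 libraries, which lowers the share of every other gene in that library. In bulk tissue, fewer muscle cells and less RNA per muscle cell cannot be told apart.

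Promoter sequences are shown for a few members because muscle promoters often share elements. Any link between such elements and the levels was not tested. RefSeq (GRCm38.p6) gave 36 promoter windows of 300 bases, 250 before and 50 after the start, for 29 of the 37 genes. The windows below are of Myh4 and Myh1, fast myosin heavy chains whose shares of myosin RNA moved in opposite directions, of Pvalb, the member with the largest fold difference between IMQ/Veh and UTX/Veh, of Acta1, skeletal α-actin and the most abundant member, and of Myh7, the slow myosin heavy chain. Capitals mark matches to MEF2, CArG and the MCAT motif (CATTCC or GGAATG). The Myh4 window lies at chr11:67237562-67237861 (+), Myh1 at chr11:67199852-67200151 (+), Pvalb at chr15:78206351-78206650 (-), Acta1 at chr8:123894726-123895025 (-) and Myh7 at chr14:54994577-54994876 (-).
Myh4: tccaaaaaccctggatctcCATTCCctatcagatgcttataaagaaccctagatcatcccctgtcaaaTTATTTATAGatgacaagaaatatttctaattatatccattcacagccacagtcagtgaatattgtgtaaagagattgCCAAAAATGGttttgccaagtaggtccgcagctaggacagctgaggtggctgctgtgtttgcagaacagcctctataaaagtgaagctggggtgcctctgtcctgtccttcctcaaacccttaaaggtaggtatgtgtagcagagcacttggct
Myh1: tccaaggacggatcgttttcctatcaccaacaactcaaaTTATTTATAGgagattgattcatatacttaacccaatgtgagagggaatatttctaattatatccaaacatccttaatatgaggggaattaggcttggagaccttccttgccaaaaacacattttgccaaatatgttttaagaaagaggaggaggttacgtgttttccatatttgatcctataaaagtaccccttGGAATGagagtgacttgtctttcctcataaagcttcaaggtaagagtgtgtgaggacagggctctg
Pvalb: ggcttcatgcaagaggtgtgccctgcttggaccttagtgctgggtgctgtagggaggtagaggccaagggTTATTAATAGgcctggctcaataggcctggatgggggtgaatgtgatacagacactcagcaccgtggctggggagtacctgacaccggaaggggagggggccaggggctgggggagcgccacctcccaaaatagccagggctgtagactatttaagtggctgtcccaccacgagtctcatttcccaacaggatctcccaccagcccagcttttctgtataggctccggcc
Acta1: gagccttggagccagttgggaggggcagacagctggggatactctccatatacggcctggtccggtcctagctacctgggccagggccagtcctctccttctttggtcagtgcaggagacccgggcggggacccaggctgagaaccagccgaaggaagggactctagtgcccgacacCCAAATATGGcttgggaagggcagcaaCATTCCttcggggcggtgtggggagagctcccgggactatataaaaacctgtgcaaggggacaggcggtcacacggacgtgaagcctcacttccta
Myh7: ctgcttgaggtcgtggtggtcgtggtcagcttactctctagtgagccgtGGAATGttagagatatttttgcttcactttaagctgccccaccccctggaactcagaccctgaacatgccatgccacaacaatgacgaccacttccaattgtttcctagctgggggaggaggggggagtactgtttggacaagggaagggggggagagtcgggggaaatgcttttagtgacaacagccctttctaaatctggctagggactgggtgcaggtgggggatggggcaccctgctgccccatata
Myh4 and Myh1 carried the same MEF2 letters, 182 and 211 bases before the start, where the first base of the match was counted. Acta1 carried a CArG match beside an MCAT match. The Myh7 window held an MCAT match and neither MEF2 nor CArG letters. Myh7 and Pvalb each have a second RefSeq window, not printed, with no match to MEF2, CArG or MCAT.

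Over all member promoters, read on both strands, MEF2 letters stood in 19.4% of windows, against 3.19% of the 32851 RefSeq promoters. CArG letters stood in 16.7% of member windows, against 1.63% of all promoters, and the MCAT letters in 27.8%, against 14.7%. The CArG matches fell in 6 windows of 5 genes, because overlapping windows of Ldb3 hold the same site. The E-box CANNTG was common everywhere, in 83.3% of member windows and 72.3% of all promoters. None of the 24 MEF2, CArG and MCAT matches overlapped another match of these motifs or an E-box. The letters TATAAA stood in 22.2% of member windows and 13.6% of all promoters, and in Myh4 and Myh1 they overlap the MEF2 match. A match is a description of letters in this window and not a bound site. Myh2, Myh1, Myh4 and Myh8 lie side by side on chromosome 11 (GRCm38), and the fast troponin genes Tnni2 and Tnnt3 are near neighbours on chromosome 7.

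In UTX/Veh ears, levels per length (TPM, the length- and depth-scaled level that RSEM gives) ordered the members from Acta1 at 2641 ± 249.4 TPM (SD, n = 3) down to Myh8, the perinatal myosin, at 1.89 ± 0.50 TPM. Atp2a1, the fast calcium pump, followed at 2547 ± 194 TPM and Tnnt3, fast troponin T, at 2249 ± 147 TPM. Acta1 and Atp2a1 differed by less than their SDs. The next 3 were also fast genes, with Mylpf (fast regulatory light chain) at 1814 ± 80.2 TPM, Tnni2 (fast troponin I) at 1671 ± 90.8 TPM and Tnnc2 (fast troponin C) at 1639 ± 87.9 TPM, the last 2 closer than their spread. The highest slow gene was Tnnt1, slow troponin T, at 296 ± 88.9 TPM, followed by Mybpc1, slow myosin-binding protein C, at 263 ± 26.3 TPM, again within their spread. Myl3, the slow essential light chain, was the lowest slow gene at 34.97 ± 12.9 TPM. The spread between UTX/Veh libraries differed by gene: Myh7 had an SD of 46.3 TPM around a mean of 88.7 TPM, while Casq1, the calsequestrin of fast reticulum, had an SD of 5.30 TPM around 221 TPM.

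**Figure D1:**
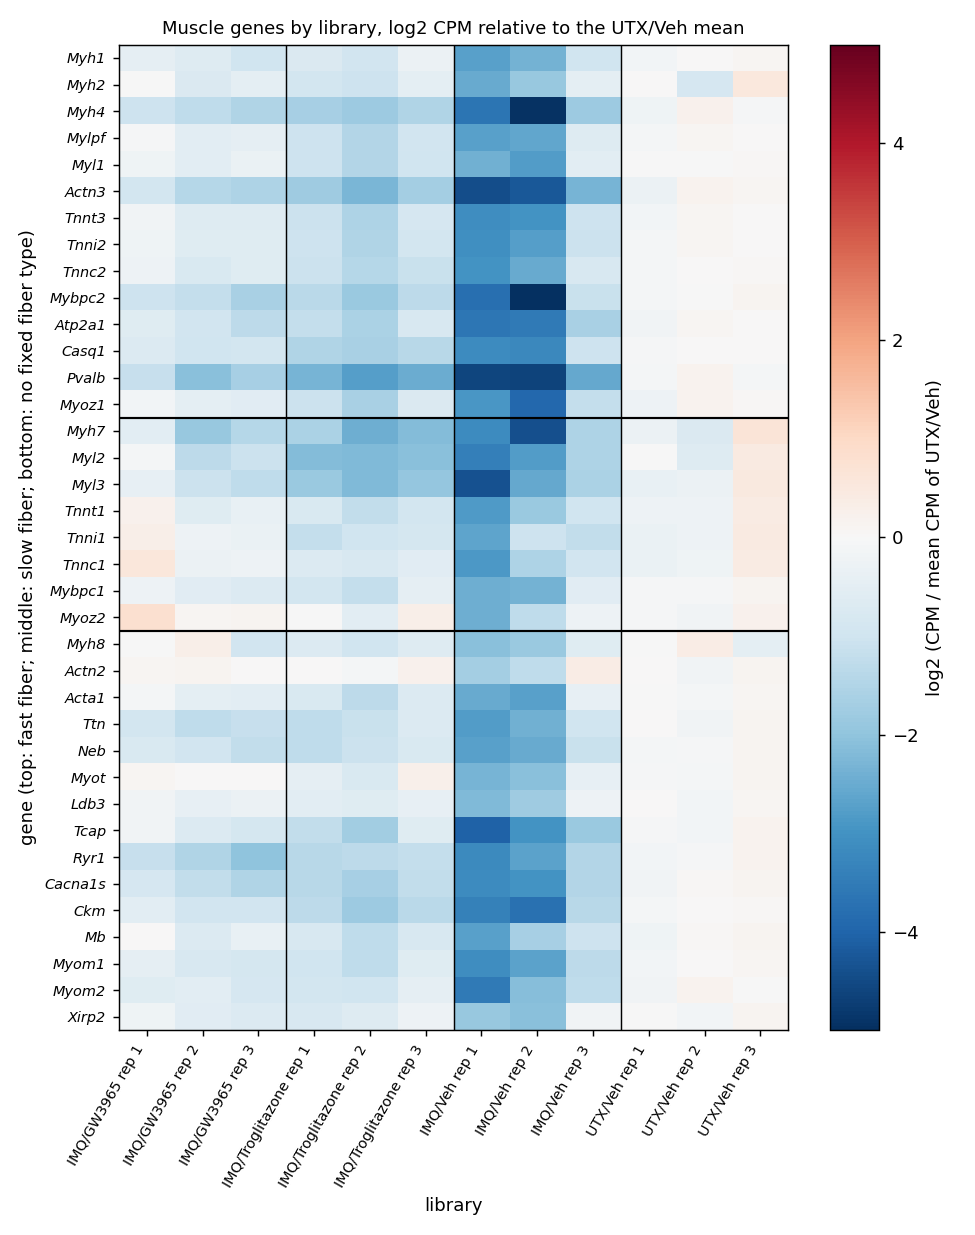
Level of each of the 37 muscle genes (rows; fast, slow and no fixed fiber type from top to bottom) in each of the 12 libraries (columns), as log2 of CPM over the UTX/Veh mean, with blue lower and red higher. IMQ/Veh replicates 1 and 2 are the bluest columns, with Pvalb at 9.86 and 9.57 CPM there, against 40.9 CPM in IMQ/Veh replicate 3 and 221 to 272 CPM in UTX/Veh libraries.

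Imiquimod with vehicle was first set against UTX/Veh. Muscle genes were lower in IMQ/Veh ears for 36 of the 37 members (edgeR quasi-likelihood test, Benjamini-Hochberg adjusted p under 0.05 over all genes), a direction in which 28.9% of all tested genes were called (61.9% in either direction). The median log2 fold change of the members was -1.92, against 0.00751 over all genes. Pvalb, Actn3, Myh4, Tcap and Atp2a1 fell most, and Actn2 was the 1 member not called. The ranges of the groups did not overlap for 35 members, the exceptions being Myh2 and Actn2, whereas 66.8% of all genes had ranges that did not overlap.

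Among the motor and thin filament genes, Myh4, the heavy chain of the fastest (IIb) fibers, had 184, 75.0 and 662 CPM (counts scaled to library size) in IMQ/Veh ears, against 2000, 2667 and 2229 CPM in UTX/Veh ears. All IMQ/Veh libraries were below all UTX/Veh libraries, and replicate 3 was the highest of its group. Myh4 fell by 2.91 ± 0.58 on the log2 scale (SE, edgeR adjusted p = 0.00111), and by 4.15 without IMQ/Veh replicate 3. Myh1, the heavy chain of IIx fibers, had 453, 579 and 1505 CPM in IMQ/Veh ears, against 2687, 3048 and 3198 CPM in UTX/Veh ears, a fall of 1.82 ± 0.37 (adjusted p = 0.00137) and of 2.52 without IMQ/Veh replicate 3. Myh7 had 21.4, 8.89 and 63.6 CPM in IMQ/Veh ears, against 154, 114 and 294 CPM in UTX/Veh ears, and fell by 2.59 ± 0.63 (adjusted p = 0.00371). Acta1, which builds the thin filament, had 324, 285 and 1398 CPM in IMQ/Veh ears, against 1819, 1739 and 2003 CPM in UTX/Veh ears; it fell by 1.47 ± 0.48 (adjusted p = 0.0195), by 2.60 without IMQ/Veh replicate 3, and lost its call without IMQ/Veh replicate 1. Myh2, the IIa heavy chain, fell by 1.39 ± 0.47 (adjusted p = 0.0216), with overlapping ranges of 105 to 429 CPM in IMQ/Veh ears and 335 to 870 CPM in UTX/Veh ears, and it was not called without UTX/Veh replicate 3, IMQ/Veh replicate 1 or IMQ/Veh replicate 2.

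Of the members that handle calcium, Pvalb, Atp2a1, Casq1, Ryr1 and Cacna1s all fell. Pvalb had 9.86, 9.57 and 40.9 CPM in IMQ/Veh ears, against 221, 272 and 223 CPM in UTX/Veh ears. Even the highest IMQ/Veh library was far below the lowest UTX/Veh library, and the fall was 3.58 ± 0.49 on the log2 scale (edgeR adjusted p = 8.64e-05), or 4.61 without IMQ/Veh replicate 3. Atp2a1 had 264, 282 and 1060 CPM in IMQ/Veh ears, against 2907, 3488 and 3326 CPM in UTX/Veh ears, a fall of 2.60 ± 0.47 (adjusted p = 0.000587). Ryr1, the calcium release channel, had 49.1, 69.4 and 160 CPM in IMQ/Veh ears, against 402, 430 and 500 CPM in UTX/Veh ears, and fell by 2.26 ± 0.36 (adjusted p = 0.000227). The voltage sensor Cacna1s fell by 2.32 ± 0.37 (adjusted p = 0.000258) and Casq1 by 2.08 ± 0.45 (adjusted p = 0.00193). Each of these 5 genes stayed called under all 15 alternative settings, leaving out each library included.

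Z-disc and M-line genes spanned the widest range. Actn3, α-actinin of fast fibers, had 8.30, 9.65 and 36.1 CPM in IMQ/Veh ears, against 147, 205 and 192 CPM in UTX/Veh ears, and fell by 3.34 ± 0.47 on the log2 scale (edgeR adjusted p = 0.000103). Its paralog Actn2, found in all fibers and in the heart, had 101, 136 and 428 CPM in IMQ/Veh ears, against 338, 291 and 358 CPM in UTX/Veh ears. The IMQ/Veh libraries of Actn2 lay on both sides of the UTX/Veh libraries, and its log2 fold change of -0.57 ± 0.40 did not pass the test (adjusted p = 0.227). Without IMQ/Veh replicate 3, the highest library for Actn2, the log2 fold change was -1.47 and was called (edgeR adjusted p = 6.31e-06). Leaving out that library was bound to enlarge the fall. Tcap, which caps titin at the Z-disc, fell by 2.69 ± 0.46 (adjusted p = 0.000402), while Myoz2, the calsarcin of slow fibers, fell by 1.05 ± 0.42 (adjusted p = 0.0454), the smallest fall among those called. The call of Myoz2 was lost without any 1 of UTX/Veh replicates 1, 2 and 3 or IMQ/Veh replicates 1 and 2, and without IMQ/Veh replicate 3 its fall was 1.72. Xirp2, an actin-binding protein of the Z-disc region, lost its call without UTX/Veh replicate 1 or 3 or IMQ/Veh replicate 1 or 2, and Ldb3, another Z-disc protein, without IMQ/Veh replicate 2. The giant proteins titin and nebulin fell by 1.85 ± 0.37 (Ttn, adjusted p = 0.00113) and 1.92 ± 0.35 (Neb, adjusted p = 0.000591).

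All 37 members were called lower without IMQ/Veh replicate 3, the library of its group with the most muscle RNA, and the median of the members was -2.66. In that fit 5446 of 17518 genes were called lower. With IMQ/Veh replicate 1 or 2 left out, 32 members were called, and 4515 and 4945 of 17521 genes were called lower. The file names carry a lane field, not explained in the labels, and within lane L001 the median log2 difference of the members was -2.48, and within L009 -2.10, with all 37 lower in both.

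GW3965 was then compared with vehicle under imiquimod. Muscle genes were higher in IMQ/GW3965 ears for 10 members (Tcap, Actn3, Pvalb, Myoz1, Tnnc1, Tnni2, Tnnt1, Myom1, Tnni1 and Mb), against 3.71% of all tested genes called higher (2.88% lower and 6.59% in either direction). All 37 log2 fold changes were positive, with a median of 1.39 against -0.0113 over all genes. An unadjusted p under 0.05 was found for 32 members, and for 4435 of all 17130 genes in either direction. The ranges of the groups did not overlap for 22 members, against 24.8% of all genes. Slow troponins, fast troponin I, myoglobin (Mb, which stores oxygen) and the M-line protein myomesin (Myom1) were among those called.

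Tcap had 368, 261 and 223 CPM in IMQ/GW3965 ears, against 25.4, 52.7 and 115 CPM in IMQ/Veh ears. All IMQ/GW3965 libraries were higher, and the log2 fold change was 2.14 ± 0.45 (edgeR adjusted p = 0.0234). Actn3 had 95.8, 68.5 and 62.3 CPM in IMQ/GW3965 ears, against 8.30, 9.65 and 36.1 CPM in IMQ/Veh ears, a log2 fold change of 2.08 ± 0.45 (adjusted p = 0.0249). Pvalb had 106, 56.0 and 74.6 CPM in IMQ/GW3965 ears, against 9.86, 9.57 and 40.9 CPM in IMQ/Veh ears, a log2 fold change of 1.98 ± 0.47 (adjusted p = 0.0315). The highest IMQ/Veh value of Pvalb, in replicate 3, came near the lowest IMQ/GW3965 value, in replicate 2. Tnnc1, the slow and cardiac troponin C, had 33.5, 18.3 and 18.7 CPM in IMQ/GW3965 ears, against 3.06, 7.68 and 11.5 CPM in IMQ/Veh ears, a log2 fold change of 1.66 ± 0.39 (adjusted p = 0.0307). Without IMQ/Veh replicate 3 these 4 log2 fold changes were 2.86 for Tcap, 3.07 for Actn3, 3.02 for Pvalb and 2.11 for Tnnc1. Among the 27 members not called, Atp2a1 had a log2 fold change of 1.67 ± 0.46 (adjusted p = 0.0501) and Myh4 one of 1.65 ± 0.55 (adjusted p = 0.0890), while Xirp2 had the smallest at 0.64 ± 0.40 (adjusted p = 0.338).

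The number of calls depended on single libraries. All 37 members were called higher without IMQ/Veh replicate 3, the library of its group with the most muscle RNA, with a median log2 fold change of 2.22. In that fit 2157 of 17518 genes were called higher. Without IMQ/Veh replicate 1 none was called and without replicate 2 only Tnni1 was called, although 24 members had an unadjusted p under 0.05 in either case. Without IMQ/GW3965 replicate 1 or 2 none was called (25 and 29 at an unadjusted p under 0.05), and without replicate 3 only Actn3 and Tcap were. How many of all genes had an unadjusted p under 0.05 in these fits was not counted. DESeq2 called 22 members. Within lanes the median log2 difference was 1.98 in L001 and 1.23 in L009, with all 37 higher in both.

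Troglitazone was compared with the same IMQ/Veh libraries, which the GW3965 comparison shares. Tcap was the 1 member called higher in IMQ/Troglitazone ears, against 4.69% of all genes called higher (4.65% lower and 9.34% in either direction). All 37 log2 fold changes were positive, with a median of 0.886 against -0.0176 over all genes. An unadjusted p under 0.05 was found for 18 members, and for 4826 of all 17130 genes in either direction. The ranges did not overlap for 8 members, a share near the 25.8% of all genes.

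Tcap had 177, 123 and 272 CPM in IMQ/Troglitazone ears, against 25.4, 52.7 and 115 CPM in IMQ/Veh ears. The lowest IMQ/Troglitazone library was only just above the highest IMQ/Veh library, and the log2 fold change was 1.57 ± 0.44 (edgeR adjusted p = 0.0482). The call was lost without IMQ/Veh replicate 1 or 2 or IMQ/Troglitazone replicate 1 or 3. Myh1 had 1801, 1516 and 2426 CPM in IMQ/Troglitazone ears, against 453, 579 and 1505 CPM in IMQ/Veh ears, a log2 fold change of 1.18 ± 0.37 (adjusted p = 0.0650). The slow light chain Myl2 had 10.5, 10.1 and 10.96 CPM in IMQ/Troglitazone ears, against 4.31, 6.64 and 16.0 CPM in IMQ/Veh ears, and its log2 fold change of 0.23 ± 0.45 (adjusted p = 0.771) was the smallest of the 37. Without IMQ/Veh replicate 3, 34 members were called higher, as were 2499 of 17518 genes, and the median of the members was 1.61. Myl2, Myl3 and Tnni1, all slow genes, were the 3 not called. Within lanes the median was 1.68 in L001 and 0.624 in L009, where 35 members were higher and 2 lower.

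**Figure D2:**
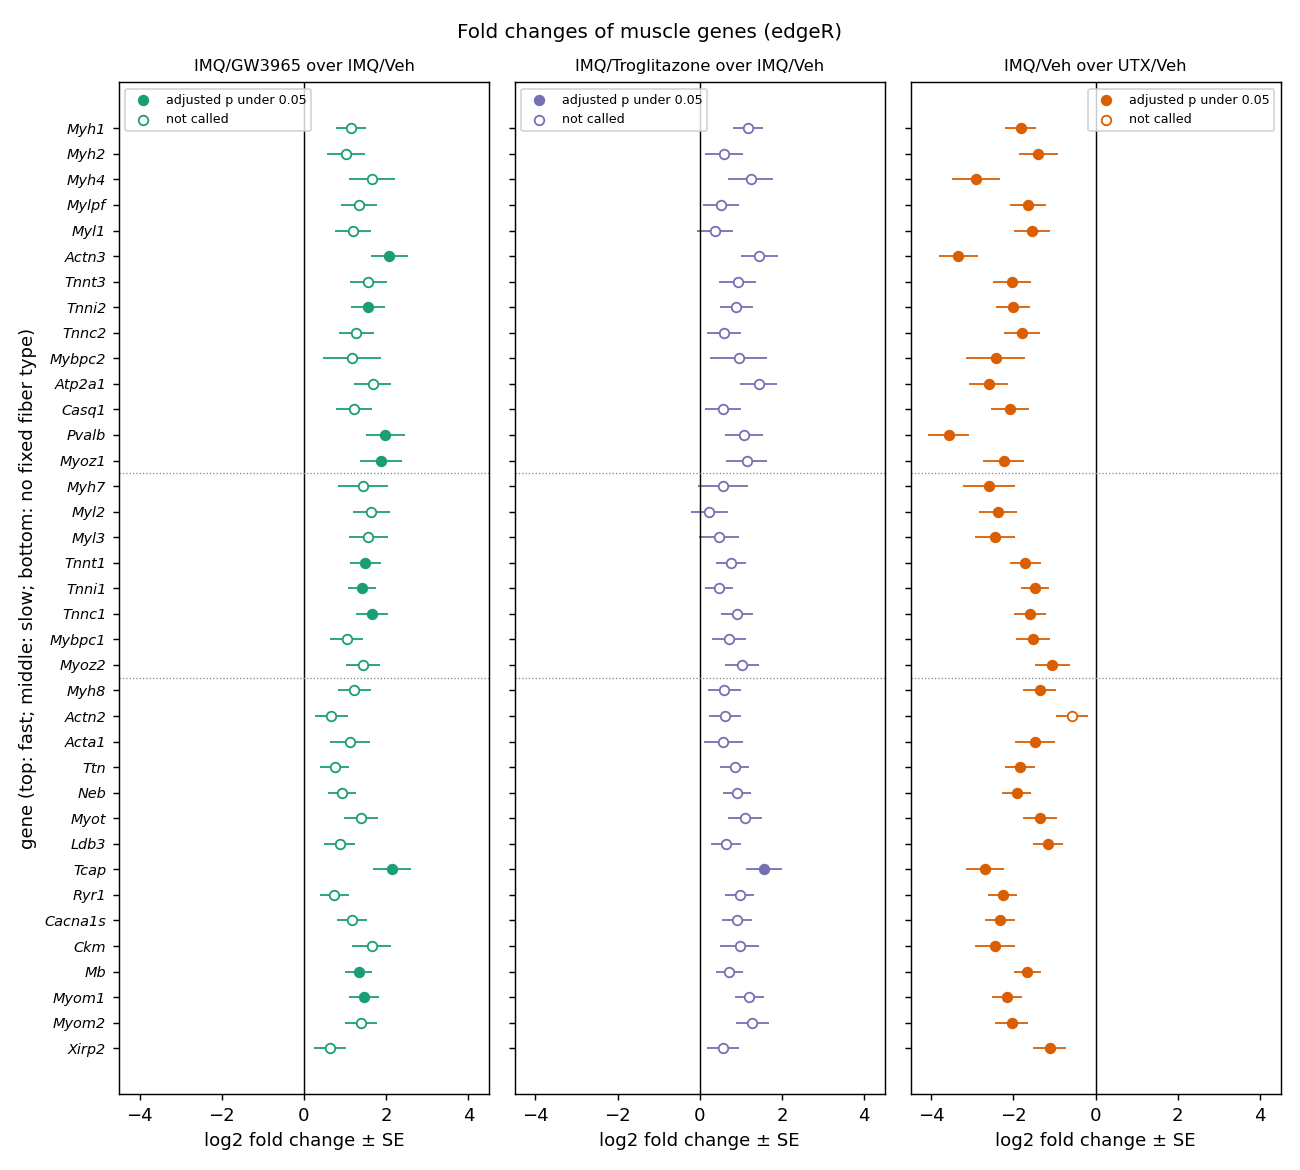
Log2 fold change (x axis, bars are the SE from edgeR) of each muscle gene for IMQ/GW3965 over IMQ/Veh, IMQ/Troglitazone over IMQ/Veh and IMQ/Veh over UTX/Veh, with filled points for an adjusted p under 0.05. All points lie right of 0 in the first 2 panels and left of 0 in the third, where 36 of 37 are filled against 10 and 1.

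Set against UTX/Veh, a subset of the members was called lower in each drug group. In IMQ/GW3965 ears 6 members were called lower (Ryr1, Pvalb, Actn3, Cacna1s, Ttn and Neb), against 21.5% of all genes called lower (50.2% in either direction). There 33 of the 37 log2 fold changes were negative, and their median was -0.517 (all genes -0.00487). A fit of only IMQ/GW3965 and UTX/Veh called 27 members lower, against 5011 of 16578 genes, a larger share than that of all genes. In the fit of all 12 libraries, used here, the share of members called lower was below that of all genes. In IMQ/Troglitazone ears 17 members were called lower, against 18.8% of all genes called lower (45.3% in either direction), with a median of -1.10 (all genes 0.0101). They were 7 fast genes (Myh4, Myl1, Actn3, Tnni2, Tnnc2, Casq1 and Pvalb), 4 slow genes (Myh7, Myl2, Myl3 and Tnni1) and Ttn, Neb, Ryr1, Cacna1s, Ckm and Mb. Ranges did not overlap with UTX/Veh for 24 members in IMQ/GW3965 ears (66.6% of all genes) and for 33 in IMQ/Troglitazone ears (62.5% of all genes).

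Ryr1 had 199, 155 and 111 CPM in IMQ/GW3965 ears and 172, 178 and 195 CPM in IMQ/Troglitazone ears, against 402, 430 and 500 CPM in UTX/Veh ears. Neither drug group reached the lowest UTX/Veh library, and Ryr1 fell by 1.52 ± 0.35 on the log2 scale in IMQ/GW3965 ears (edgeR adjusted p = 0.00366) and by 1.29 ± 0.35 in IMQ/Troglitazone ears (adjusted p = 0.0104). Pvalb had 106, 56.0 and 74.6 CPM in IMQ/GW3965 ears and 48.1, 35.2 and 42.6 CPM in IMQ/Troglitazone ears, against 221, 272 and 223 CPM in UTX/Veh ears; it fell by 1.60 ± 0.45 in IMQ/GW3965 ears (adjusted p = 0.0118) and by 2.51 ± 0.47 in IMQ/Troglitazone ears (adjusted p = 0.0014). Both genes were called under all 15 alternatives in both comparisons. Of the 6 called in IMQ/GW3965 ears, Ttn, Neb and Ryr1 have the longest transcripts among the members, at 106824, 22489 and 15358 bases. Xirp2, with 11979 bases, was not called (log2 fold change -0.48 ± 0.39, adjusted p = 0.330).

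At the other end, several slow genes in IMQ/GW3965 ears overlapped the UTX/Veh range. Tnni1, slow troponin I, had 27.5, 18.7 and 17.9 CPM in IMQ/GW3965 ears, against 17.8, 19.1 and 30.5 CPM in UTX/Veh ears, a log2 fold change of -0.07 ± 0.33 (edgeR adjusted p = 0.878). Tnnc1 had a log2 fold change of 0.06 ± 0.37 (adjusted p = 0.898) and Myoz2 one of 0.38 ± 0.41 (adjusted p = 0.455). IMQ/GW3965 replicate 1 was the highest library of its group for all 3 genes. A p that misses the threshold does not show that the levels were the same. In IMQ/Troglitazone ears Myl2 had 10.5, 10.1 and 10.96 CPM, against 45.7, 29.6 and 63.8 CPM in UTX/Veh ears, and fell by 2.14 ± 0.45 (adjusted p = 0.00284).

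These counts moved with single libraries as well. For IMQ/GW3965 against UTX/Veh, 7, 2 and 2 members were called without IMQ/GW3965 replicates 1, 2 and 3, and 4, 4 and 2 without UTX/Veh replicates 1, 2 and 3. In these fits 2801 to 3514 of all genes tested were called lower. For IMQ/Troglitazone against UTX/Veh, 7, 6 and 13 members were called without IMQ/Troglitazone replicates 1, 2 and 3, and 10, 9 and 7 without UTX/Veh replicates 1, 2 and 3. In these fits 2049 to 3064 of all genes tested were called lower. Fitting only the 2 groups compared, which leaves out IMQ/Veh and the other drug group, called 27 members lower in IMQ/GW3965 ears and 34 in IMQ/Troglitazone ears. In those fits 5011 of 16578 genes and 4415 of 16669 genes were called lower. Actn3, Pvalb, Myl2, Myl3, Ryr1 and Cacna1s were called in IMQ/Troglitazone ears under all 15 alternatives.

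Fast and slow fiber genes were compared next. In IMQ/Veh against UTX/Veh, all 14 fast genes fell, with a median log2 fold change of -2.06, and all 8 slow genes fell, with a median of -1.65. In IMQ/GW3965 against IMQ/Veh, 4 of 14 fast genes (median 1.44) and 3 of 8 slow genes (median 1.46) were called higher. In IMQ/Troglitazone against IMQ/Veh none of either class was called by edgeR (medians 0.935 and 0.636, with 7 fast and 2 slow genes at an unadjusted p under 0.05), while DESeq2 called 2 fast genes and no slow gene. Against UTX/Veh, 2 of 14 fast genes and 0 of 8 slow genes were called lower in IMQ/GW3965 ears (medians -0.597 and -0.347), against 21.5% of all genes. Log2 fold changes there ran from -1.6 to -0.317 for the fast genes and from -1.16 to 0.382 for the slow genes. Of the slow genes 0 had an unadjusted p under 0.05 and 0 were called by DESeq2. When only the 2 groups were fitted 13 fast and 3 slow genes were called, and without IMQ/GW3965 replicate 1 a single slow gene was. In IMQ/Troglitazone ears 7 fast and 4 slow genes were called lower (medians -1.16 and -0.977), against 18.8% of all genes. Leaving out IMQ/Veh replicate 3 moved these values: the fast and slow medians were then 2.51 and 2.11 in IMQ/GW3965 against IMQ/Veh, with all 14 and all 8 called. They were 1.91 and 1.34 in IMQ/Troglitazone against IMQ/Veh, with 14 and 5 called, and -3.11 and -2.33 in IMQ/Veh against UTX/Veh. No fast or slow gene was called in either drug group against IMQ/Veh when IMQ/Veh replicate 1 was left out. The summed TPM of the fast genes was 59.3, 40.7 and 33.8% of the UTX/Veh mean in IMQ/GW3965 ears, 37.1, 29.6 and 43.4% in IMQ/Troglitazone ears and 7.81, 9.55 and 33.9% in IMQ/Veh ears. The summed slow genes stood at 80.4, 43.6 and 39.0% in IMQ/GW3965 ears, 40.8, 34.6 and 45.9% in IMQ/Troglitazone ears and 8.80, 16.98 and 36.7% in IMQ/Veh ears. Both classes were thus lowest in the same 2 IMQ/Veh libraries. These percentages depend on the scale, and the gap between TPM and CPM differed by gene. TPM carries no TMM scaling, but that scaling acts on all genes of a library alike. The cause of the gap was not tested. In IMQ/GW3965 ears Mylpf averaged 54.28% of the UTX/Veh mean by TPM and 80.27% by TMM-scaled CPM. Tnni1 averaged 64.13% by TPM and 95.2% by CPM there, while Neb averaged 49.43% by TPM and 50.44% by CPM.

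A ratio within a library compares genes at the same muscle content, and 8 fast and slow paralog pairs were compared as log2 ratios of TPM. None of the 40 tests (8 pairs in 5 comparisons) could pass the threshold, since an exact two-sided permutation test of 3 against 3 libraries gives no p below 0.1. For Mybpc2 over Mybpc1, the fast and slow myosin-binding proteins, the log2 ratio was -3.20, -2.88 and -3.28 in IMQ/GW3965 ears, -2.71, -2.96 and -3.10 in IMQ/Troglitazone ears, -3.37, -5.42 and -2.75 in IMQ/Veh ears, and -2.27, -2.14 and -2.23 in UTX/Veh ears. All 9 imiquimod libraries lay below all 3 UTX/Veh libraries. In UTX/Veh ears this was the only pair with a negative mean log2 ratio (-2.213), while the others ran from 0.8459 to 5.276. Whether Mybpc1 marks slow fibers in this tissue was not tested, so this pair may not follow fiber type. For Myoz1 over Myoz2, the fast and slow calsarcins, the log2 ratio was -0.07, 0.30 and 0.14 in IMQ/GW3965 ears, -0.23, -0.22 and -0.22 in IMQ/Troglitazone ears, 0.25, -1.94 and -0.23 in IMQ/Veh ears, and 0.66, 1.19 and 0.69 in UTX/Veh ears. Again no imiquimod library reached the UTX/Veh range, and each of the 6 comparisons of these pairs with UTX/Veh gave an exact p of 0.1 (0.444 after adjustment over the 40 tests). The 3 comparisons of each pair share the UTX/Veh libraries.

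The 3 troponin pairs also had lower means in every imiquimod group, with overlap in all but 1 comparison, and the light chain pairs had higher means. Tnnt3 over Tnnt1 averaged 2.71 in IMQ/GW3965 ears, 2.74 in IMQ/Troglitazone ears, 2.44 in IMQ/Veh ears and 2.96 in UTX/Veh ears, with overlapping ranges throughout. Tnni2 over Tnni1 averaged 4.88 in IMQ/GW3965 ears, 5.11 in IMQ/Troglitazone ears, 4.54 in IMQ/Veh ears and 5.28 in UTX/Veh ears, also with overlap. Tnnc2 over Tnnc1 averaged 3.89 in IMQ/GW3965 ears, 3.91 in IMQ/Troglitazone ears, 4.11 in IMQ/Veh ears and 4.46 in UTX/Veh ears, and only the IMQ/Troglitazone range lay wholly below that of UTX/Veh (exact permutation p = 0.1, adjusted 0.444). Myl1 over Myl3, the essential light chains, averaged 5.71 in IMQ/GW3965 ears, 5.92 in IMQ/Troglitazone ears, 5.99 in IMQ/Veh ears and 5.18 in UTX/Veh ears, so the imiquimod means were higher, and the IMQ/Troglitazone range lay wholly above that of UTX/Veh (exact permutation p = 0.1, adjusted 0.444). Mylpf over Myl2 averaged 3.87 in IMQ/GW3965 ears, 4.37 in IMQ/Troglitazone ears, 3.98 in IMQ/Veh ears and 3.43 in UTX/Veh ears. Myh4 over Myh7, the IIb and slow heavy chains, averaged 2.765 in IMQ/GW3965 ears, 3.515 in IMQ/Troglitazone ears, 2.495 in IMQ/Veh ears and 3.1 in UTX/Veh ears. Its IMQ/Troglitazone range lay wholly above that of IMQ/Veh (exact permutation p = 0.1, adjusted 0.444), and its ranges overlapped in the other comparisons. No other pair had a drug group apart from IMQ/Veh. The fast to slow ratio thus had no common direction over the 8 pairs: in IMQ/Veh against UTX/Veh it was lower for 6 pairs and higher for both light chain pairs. The ratio of the summed fast to the summed slow genes averaged 3.48 on the log2 scale in IMQ/GW3965 ears, 3.58 in IMQ/Troglitazone ears, 3.36 in IMQ/Veh ears and 3.76 in UTX/Veh ears, and its ranges overlapped in every comparison.

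**Figure D3:**
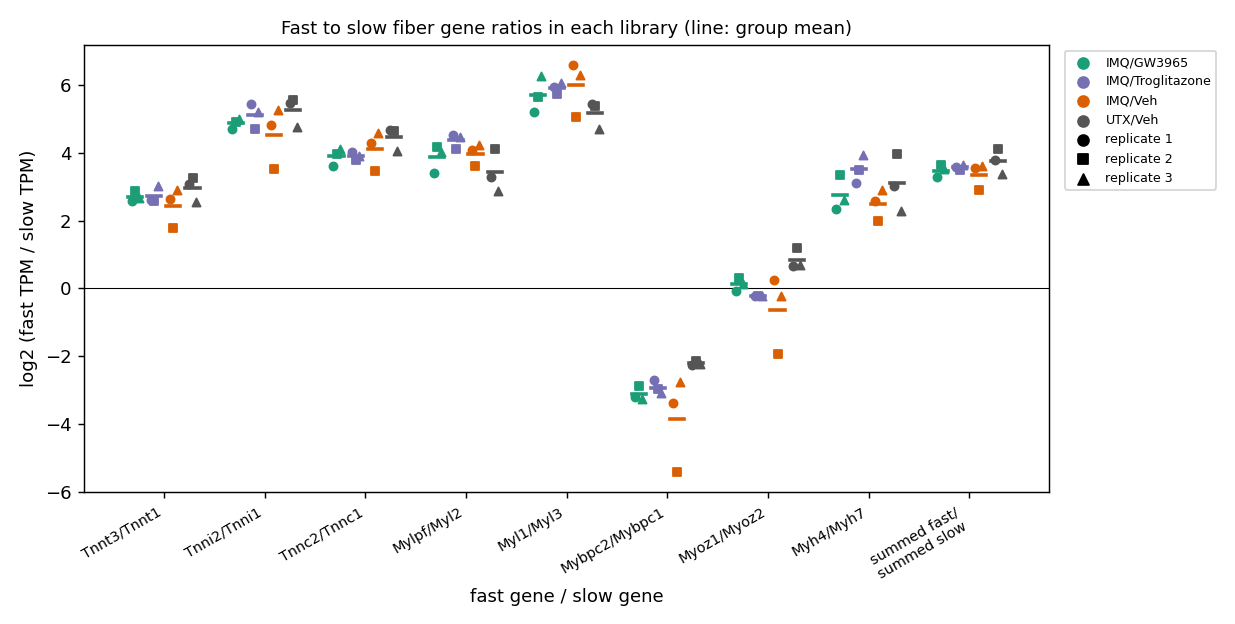
Log2 ratio of TPM of a fast gene over its slow paralog (y axis) for 8 pairs and for the summed classes, with 1 point per library (shape marks the replicate) and a line at each group mean. Mybpc2/Mybpc1 and Myoz1/Myoz2 lie below the UTX/Veh points in all 9 imiquimod libraries, while the light chain pairs have higher means than UTX/Veh and the summed ratio overlaps.

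Within the myosin heavy chains, the IIb share was smaller in all imiquimod groups. Myh4 made up 27.1, 28.8 and 28% of the summed TPM of the 5 heavy chain genes in IMQ/GW3965 ears, 24.6, 25.7 and 21.6% in IMQ/Troglitazone ears, 23.7, 8.94 and 24.6% in IMQ/Veh ears, and 36.0, 42.8 and 32.9% in UTX/Veh ears. All 9 imiquimod libraries were below the lowest UTX/Veh library. Myh1, the IIx gene, made up 52.7, 56.9 and 51.8% in IMQ/GW3965 ears, 61.4, 60.04 and 65.1% in IMQ/Troglitazone ears, 58.4, 69.3 and 55.9% in IMQ/Veh ears, and 48.5, 49.1 and 47.4% in UTX/Veh ears, so that all imiquimod libraries were above the highest UTX/Veh library. Myh2 averaged 13.8% in IMQ/GW3965 ears, 11.6% in IMQ/Troglitazone ears, 16.4% in IMQ/Veh ears and 9.79% in UTX/Veh ears, with a range of 5.36 to 12.9% in UTX/Veh ears. Myh7 averaged 4.27% in IMQ/GW3965 ears, 2.18% in IMQ/Troglitazone ears, 3.15% in IMQ/Veh ears and 4.61% in UTX/Veh ears, with overlap. IMQ/Veh replicate 3, with the most muscle RNA of its group, had nearly the same Myh4 share as replicate 1, with the least. The shares were chosen for display after their values were seen, and no test was made of them. RSEM had to divide reads among these genes: 26.9% of all 50-base windows of the Myh2 transcript, 26.7% of Myh1, 22.2% of Myh7, 21.4% of Myh8 and 18.9% of Myh4 occur also in another gene.

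**Figure D4:**
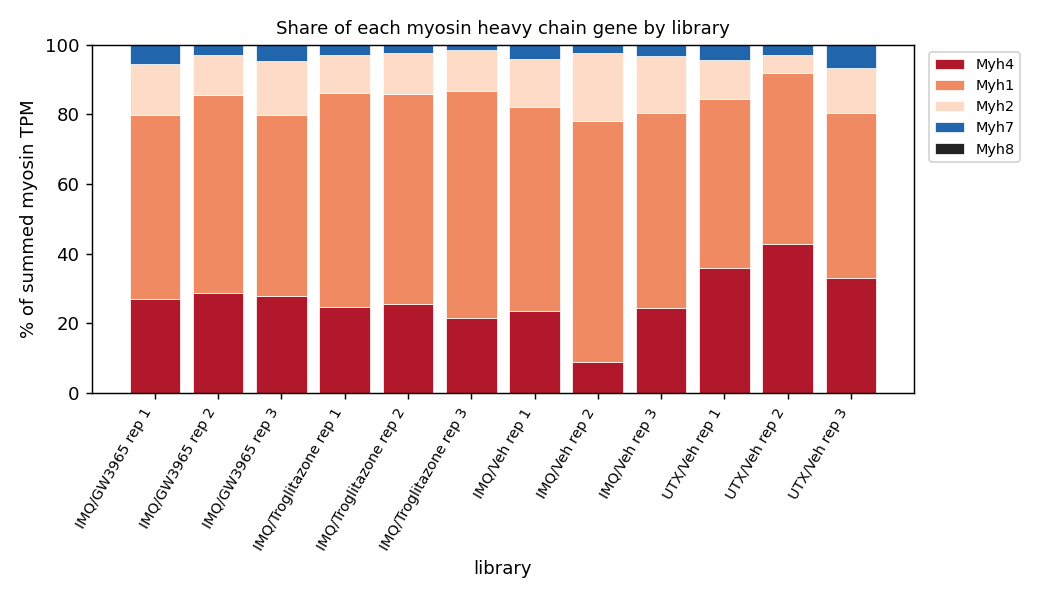
Share of each of 5 myosin heavy chain genes in their summed TPM (y axis, percent) in each library. Myh4 (dark red) fills 8.94 to 28.8% of the bars of the 9 imiquimod libraries, against 32.9 to 42.8% in UTX/Veh libraries, and Myh8 is too small to be seen.

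Most genes of the muscle fiber outside the 37 were lower too. In the counts of list genes from here on, fell and rose mean called lower and called higher. Of all genes, 28.9% were called lower and 33.0% higher in IMQ/Veh against UTX/Veh. In IMQ/Veh against UTX/Veh, all 12 muscle energy genes fell, among them Pfkm, muscle phosphofructokinase (log2 fold change -1.82 ± 0.35, edgeR adjusted p = 0.000893) and Eno3, muscle enolase (-1.5 ± 0.44, adjusted p = 0.0117). Of 24 other sarcomere genes 19 fell and 1 rose, with Tpm1 at -1.62 ± 0.31 (adjusted p = 0.000914) and Tpm2 at -0.83 ± 0.21 (adjusted p = 0.00478), both tropomyosins that smooth muscle also uses. Of 15 other excitation-contraction genes 13 fell, such as Srl, the reticulum protein sarcalumenin (-1.61 ± 0.41, adjusted p = 0.00477), and Atp2a2, the calcium pump of slow muscle, heart and many other cells, keratinocytes included, rose by 0.55 ± 0.11 (adjusted p = 0.00100). Of 11 dystrophin complex and membrane repair genes 9 fell, with Dmd, dystrophin, at -1.67 ± 0.25 (adjusted p = 0.000148) and Dag1, dystroglycan, at -0.32 ± 0.07 (adjusted p = 0.00221). Of 11 neuromuscular junction genes 9 fell, with Ache, acetylcholinesterase, at -2.57 ± 0.41 (adjusted p = 0.000244) and the agrin receptor Lrp4 at -1.19 ± 0.14 (adjusted p = 2.75e-05).

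Regulators of muscle identity and of atrophy were counted separately. Of 13 tested myogenic factors and satellite cell genes 9 fell, among them Mef2c, a transcription factor of muscle (log2 fold change -1.61 ± 0.28, edgeR adjusted p = 0.000434), and 11 fell without IMQ/Veh replicate 3. Of 8 atrophy and denervation genes 4 fell and 2 rose: Fbxo32, the ubiquitin ligase atrogin-1, fell by 1.93 ± 0.39 (adjusted p = 0.00117), and Runx1, a transcription factor that denervated muscle and many skin and blood cells express, rose by 0.85 ± 0.12 (adjusted p = 0.000109). In IMQ/GW3965 against IMQ/Veh, 4 of 12 energy genes, 2 of 24 other sarcomere genes and 3 of 15 other excitation-contraction genes were called higher. So were 2 of 11 dystrophin complex genes, 0 of 11 junction genes (6 at an unadjusted p under 0.05 and 3 called by DESeq2) and 2 of 13 myogenic genes, against 3.71% of all genes. All junction log2 fold changes were positive, from 0.16 to 1.69. Of the 8 atrophy and denervation genes none rose by edgeR (3 at an unadjusted p under 0.05 in either direction, 1 called higher by DESeq2) and Runx1 fell by 0.63 ± 0.12 (adjusted p = 0.0189), with a median of 0.178 over the list; 3 rose without IMQ/Veh replicate 3, and none was called without IMQ/GW3965 replicate 3. Without IMQ/Veh replicate 3 the 6 counts of genes that rose were 12, 22, 12, 7, 6 and 9, and without IMQ/GW3965 replicate 3 they were 0, 0, 0, 1, 0 and 2.

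Cartilage and Schwann cell markers were mostly lower in IMQ/Veh ears, some of the adipocyte and smooth muscle markers were, and most keratins were higher. Of 15 tested cartilage markers 13 fell in IMQ/Veh against UTX/Veh, with Chad, chondroadherin, at -2.68 ± 0.43 (edgeR adjusted p = 0.000248) and Acan, aggrecan, at -1.74 ± 0.32 (adjusted p = 0.000685). Their summed TPM was 38.0, 24.9 and 22.3% of the UTX/Veh mean in IMQ/GW3965 ears, 29.3, 26.9 and 36.7% in IMQ/Troglitazone ears and 7.79, 12.0 and 28.3% in IMQ/Veh ears, with IMQ/Veh replicate 3 again the highest of its group. Of 10 Schwann cell markers 9 fell, among them Mbp, myelin basic protein (-0.83 ± 0.09, adjusted p = 2.08e-05). Of 12 adipocyte markers 5 fell, such as Car3, carbonic anhydrase 3, which slow muscle also expresses (-1.73 ± 0.37, adjusted p = 0.00161), and the lipase gene Pnpla2 (-1.07 ± 0.22, adjusted p = 0.00139); 11 fell without IMQ/Veh replicate 3. Of 9 tested smooth muscle markers 3 fell and 1 rose, with Synm, synemin, which striated muscle also holds, at -1.94 ± 0.31 (adjusted p = 0.000248) and Mylk, smooth muscle myosin kinase, at -0.88 ± 0.29 (adjusted p = 0.0212); without IMQ/Veh replicate 3, 6 fell and none rose. Of 5 keratinocyte keratins 4 rose and 1 fell, with Krt1 at 4.32 ± 0.34 (adjusted p = 2.23e-06) and Krt10 at 0.57 ± 0.13 (adjusted p = 0.00249), both of the differentiating epidermis. The part of these tissues in the muscle values was not tested.

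Between the drug groups and vehicle, cartilage markers went both ways. Their summed TPM averaged 28.4% of the UTX/Veh mean in IMQ/GW3965 ears and 30.96% in IMQ/Troglitazone ears, against 16.03% in IMQ/Veh ears. In IMQ/GW3965 against IMQ/Veh the median log2 fold change of the cartilage markers was 0.000123, with 1 of 15 (Chad) called higher, beside 1.39 for the 37 muscle genes, and it was 0.619 without IMQ/Veh replicate 3, where 6 were called, and -0.219 without IMQ/GW3965 replicate 3, where none was. In IMQ/Troglitazone against IMQ/Veh it was -0.157, with none called by edgeR (3 at an unadjusted p under 0.05, 1 called by DESeq2), beside 0.886 for the muscle genes, and it was 0.518 without IMQ/Veh replicate 3, where 5 were called. Adipocyte markers had medians of 1.02 and 0.974 in these comparisons, and Schwann cell markers 0.393 and 0.158. Against UTX/Veh, 13 of 15 cartilage markers were called lower in IMQ/GW3965 ears and 13 of 15 in IMQ/Troglitazone ears, beside 6 and 17 of the 37 muscle genes. The difference between the lists was not tested.

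**Figure D5:**
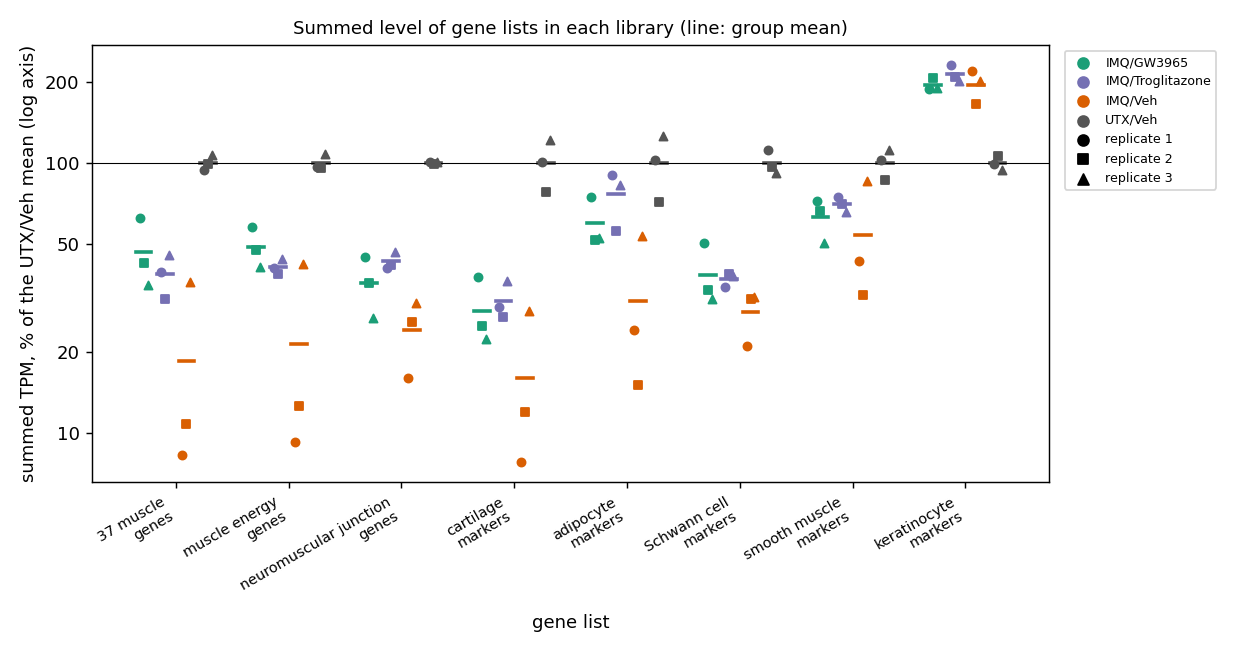
Summed TPM of 8 gene lists in each library as a percentage of the UTX/Veh mean (y axis, log scale), with 1 point per library and a line at each group mean. The 37 muscle genes stand at 8.27 and 10.9% in IMQ/Veh replicates 1 and 2 and at 36.3% in replicate 3, while keratinocyte markers stand at 166 to 231% in all imiquimod libraries. TPM carries no TMM scaling.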

How the data were processed

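Each library has its own RSEM table of genes. The submitters' processing notes name STAR 2.7.3a and RSEM 1.3.3, with FastQC, Trim Galore and the build GRCm38 (mm10). The sources used here give neither annotation release nor strand setting. Per the labels' protocols, mirVana extracts were cleared of DNA and TruSeq stranded mRNA libraries were prepared. The deposited expected counts are estimated counts with no depth scaling, and the deposited TPM values, scaled by the authors' RSEM run for length and depth, were used for levels, sums and ratios. Effective lengths in the authors' tables served only an alternative.

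Expected counts were rounded and tested with edgeR 4.0.16 (R 4.3.3; TMM scaling, its default filter on low counts, quasi-likelihood test, 1 fit of all 12 libraries, 8 residual degrees of freedom), with Benjamini-Hochberg adjustment over all 17130 genes and a threshold of 0.05; DESeq2 1.42.0 was an alternative. CPM are TMM-scaled, TPM are not, and a fold change is log2. Against UTX/Veh, member means of the imiquimod groups stood lower by TPM than by CPM, so percentages of summed TPM do not match the fold changes. The procedure was tested on simulated data. Paralog ratios, with no pseudocount, were compared by exact two-sided permutation tests. Precision is limited by 3 libraries per group. The common dispersion of 0.0306 is a value over all genes and does not give the precision of single members, which their SEs give. In IMQ/Veh ears, for instance, Pvalb ran from 9.57 to 40.9 CPM. No 2 libraries of the same group were near copies of each other; pairs across groups were not compared.

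The members, the fiber classes and the 12 other lists were chosen with earlier results of these data known. Every member could be named, and of each other list the 2 genes called in IMQ/Veh against UTX/Veh with the highest mean CPM, or the 2 highest where none was called. In 2 of these lists, 1 of the genes so chosen is not reported here. Mymx, Myocd, Kcnmb1 and Matn1 did not pass the filter. Libraries were also left out 1 at a time, and scaling, filter, tool, groups in the fit, a lane covariate and a replicate block were varied.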

Additional observations from a re-analysis of the deposited data

How the results depend on the processing

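IMQ/Veh against UTX/Veh kept 30 to 37 members called lower under every setting tried, while 4269 to 5867 of all genes tested were called lower. Upper-quartile scaling moved the median of all genes to -0.114 there, to -0.11 in IMQ/GW3965 and to -0.109 in IMQ/Troglitazone against UTX/Veh, and the share of calls that were lower to 55, 52.8 and 55.3%, against 46.7, 42.8 and 41.5% with TMM. For IMQ/GW3965 against IMQ/Veh, with 10 members and 1129 genes called, the counts were 24 members and 1480 of 30272 genes with no filter, 22 members and 2222 genes with DESeq2, 0 members and 102 genes with only the 2 groups fitted (24 members and 3092 genes at an unadjusted p under 0.05), 2 members and 549 genes with the lane field, 0 to 37 members and 105 to 3645 genes with 1 library left out, and 37 members and 3041 genes without replicate 3 of both groups, a setting chosen after seeing the data. For IMQ/Troglitazone against IMQ/Veh, with 1 member and 1600 genes called, they were 0 members and 1640 genes with upper-quartile scaling, 7 members and 1557 of 30272 genes with no filter, 7 members and 2590 genes with DESeq2, 0 members and 0 genes with only the 2 groups fitted (7 members and 3279 genes at an unadjusted p under 0.05), 0 members and 1009 genes with the lane field, and 0 to 34 members and 162 to 4460 genes with 1 library left out. Against UTX/Veh, fits of only the 2 groups called 27 members and 10030 genes in IMQ/GW3965 ears, and 34 members and 8982 genes in IMQ/Troglitazone ears. Leaving out 1 library gave 2 to 7 members and 6844 to 8312 genes in IMQ/GW3965 ears, and 6 to 13 members and 5808 to 7537 genes in IMQ/Troglitazone ears. By medians of log2 TPM the fast to slow difference was -0.81 for IMQ/Veh minus UTX/Veh, 0.51 for IMQ/Troglitazone minus IMQ/Veh and -0.97 for IMQ/GW3965 minus UTX/Veh, against -0.40, 0.22 and -0.28 by sums. Except where a setting uses fewer libraries, the cause was not tested.

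The replicate numbers did not pair the libraries (correlations of deviations -0.141 to 0.284). A replicate block called 18 members and 1426 genes in IMQ/GW3965 against IMQ/Veh, and 7 members and 1715 genes in IMQ/Troglitazone against IMQ/Veh. It called 36 members and 10722 genes in IMQ/Veh against UTX/Veh. In IMQ/GW3965 against UTX/Veh it called 6 members and 8716 genes, and in IMQ/Troglitazone against UTX/Veh 22 members and 7911 genes.

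Signs turned only among members that were not called. In IMQ/GW3965 against UTX/Veh, upper-quartile scaling gave log2 fold changes of -0.035 for Tnnc1, -0.014 for Actn2 and -0.062 for Myot, and scaling without the members and ENSMUSG00000119584 gave -0.0058 for Myot. In IMQ/Troglitazone against UTX/Veh, upper-quartile scaling gave -0.073 for Actn2. With 1 library left out, the ranges crossed 0 in IMQ/GW3965 against UTX/Veh for Tnnt1 (-0.48 to 0.041), Tnni1 (-0.29 to 0.22), Tnnc1 (-0.28 to 0.33) and Myh8 (-0.44 to 0.11), in IMQ/Troglitazone against UTX/Veh for Myoz2 (-0.23 to 0.17) and Actn2 (-0.044 to 0.12), and in IMQ/Troglitazone against IMQ/Veh for Myl2 (-0.089 to 0.93).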

Other observations

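Myog, Mymk and Chrng stood high in 1 library of the IMQ/GW3965 group, a pattern picked out after the values were seen. Their whole lists did not share it to that degree. In IMQ/GW3965 replicates 1, 2 and 3 the summed myogenic list stood at 47.02, 51.89 and 32.79% of the UTX/Veh mean. The junction list, which holds Chrng, stood at 44.89, 36.02 and 26.64%. Myog, a transcription factor of differentiating myoblasts, was at 2.09, 8.80 and 3.37 TPM in IMQ/GW3965 ears, 0.36, 1.12 and 2.83 TPM in IMQ/Veh ears and 3.13, 3.82 and 5.31 TPM in UTX/Veh ears. Mymk, which myoblasts need in order to fuse, was at 0.06, 3.11 and 0.35 TPM in IMQ/GW3965 ears, 0.00, 0.49 and 0.17 TPM in IMQ/Veh ears and 0.35, 1.45 and 0.23 TPM in UTX/Veh ears. Chrng, the fetal subunit of the acetylcholine receptor, was at 0.09, 1.46 and 0.42 TPM in IMQ/GW3965 ears, against 0.21 to 0.39 TPM in UTX/Veh ears. In each case the high library was IMQ/GW3965 replicate 2. No comparison of these genes with IMQ/Veh was called (in IMQ/GW3965, edgeR adjusted p = 0.116 for Myog, 0.243 for Mymk and 0.280 for Chrng). In IMQ/Troglitazone against IMQ/Veh the log2 fold changes were 0.21 for Myog, 0.45 for Mymk and -0.47 for Chrng.

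Myod1, the myoblast determination factor, was also singled out after its values were seen. It was at 1.88, 2.93 and 1.03 TPM in IMQ/GW3965 ears, 2.01, 1.56 and 0.90 TPM in IMQ/Troglitazone ears, 0.21, 0.42 and 0.55 TPM in IMQ/Veh ears and 4.84, 5.39 and 5.11 TPM in UTX/Veh ears. All 3 IMQ/Veh libraries, low at no more than 0.55 TPM, were below all libraries of the other groups, replicate 3 included. By CPM, 66.8% of all genes had ranges that did not overlap between IMQ/Veh and UTX/Veh. For IMQ/Veh that share was 24.8% against IMQ/GW3965 and 25.8% against IMQ/Troglitazone. Myod1 was called higher in IMQ/GW3965 (log2 fold change 2.33 ± 0.41, edgeR adjusted p = 0.0147) and in IMQ/Troglitazone (1.66 ± 0.42, adjusted p = 0.0346) against IMQ/Veh, and lower in IMQ/Veh against UTX/Veh (-3.15 ± 0.41, adjusted p = 5.4e-05). Most of its list was not called against IMQ/Veh. With Myod1 included, 2 of 13 tested myogenic genes were called higher in IMQ/GW3965 and 1 in IMQ/Troglitazone. Log2 fold changes of the list ran from -0.307 to 2.5 and from -0.254 to 1.66. Myh3, the embryonic myosin, was at 3.44, 13.4 and 12.8 TPM in IMQ/Veh ears, against 63.8, 51.0 and 71.1 TPM in UTX/Veh ears.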
